A study of Hydra vulgaris with 12 samples.

Results

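The 198 transcripts described here stood higher at 48 h of head regeneration in Hydra than at any of the 5 earlier times. They were chosen from 16988 predicted mRNAs (identifiers with the prefix XM_), of which they are 1.17%. Hydra strain 105 (Hydra magnipapillata), a freshwater polyp that regrows its head after amputation, was bisected below the uppermost part of the trunk. RNA was taken from the next 2 trunk regions after 0, 2, 4, 6, 12 or 48 h. Each sample pooled 50 to 100 asexual animals with a young bud, starved for 1 day, and each time has 2 samples, which gives 12 poly(A) RNA sequencing libraries. Animals of all 6 groups were bisected and no uncut ones of matching age serve as controls, so hours after bisection and hours kept without food or in culture cannot be told apart. The samples are tissue pools: more cells of a type and more RNA per cell cannot be told apart.

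In Hydra, a head organizer forms at the cut end early in regeneration, with secreted Wnt ligands among its first signals, and the mouth cone and tentacles take shape afterwards. Tissue taken late in this process can therefore hold transcripts of head structures as well as those of the remaining trunk. Which of these the 198 transcripts belong to cannot be read from the table, because it pairs 1 of its 17353 rows with a gene name. That row is Wnt3, a Wnt ligand of the head organizer, which is not a member and is outside the criteria for named transcripts. Wnt3 stood at 1.98 and 2.72 RPKM at 0 h, 3.78 and 4.30 at 2 h, 6.91 and 5.29 at 4 h, 8.30 and 6.15 at 6 h, 6.71 and 8.93 at 12 h, and 12.4 and 10.1 RPKM at 48 h. It was lowest in the 0 h libraries and highest in the 48 h libraries, with a 48 h mean 0.54 above the highest earlier mean on the log2 scale used below. None of the 198 members' accessions was found in the RefSeq gene list used for names, even with version numbers ignored. Marker genes and pathway lists could therefore not be looked up among the members, and no marker other than Wnt3 was available to check the labelled tissue. The members are given by their identifiers, and their functions are not stated.

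The members were chosen from the measured values in all 12 libraries. Levels are RPKM, read numbers normalised by the authors to transcript length and library size, as deposited. For the choice each library was scaled so that its median over 11050 well-expressed predicted mRNAs was 20, and log2(scaled RPKM + 1) was averaged over the 2 libraries of a time. A member has a 48 h mean at least 1 above the highest of the 5 other means, and both of its 48 h libraries lie above all 10 others on this scale. On the deposited scale, without scaling, the lower 48 h library of 11 members overlapped with earlier ones. The difference between the 48 h mean and the highest earlier mean is called the gap below. Because of the + 1, the gap understates the change of weakly expressed transcripts. A further condition, that the 4, 6 and 12 h means do not all stand 1 or more above the 0 and 2 h means, removed 10 of 208 transcripts that met the first 2. A further 51 transcripts had the gap but 48 h libraries that overlapped earlier ones. Without any limit on the gap, 7.59% of the predicted mRNAs had both 48 h libraries above the 10 others. Since these values made the choice, the rise at 48 h is described here and carries no test.

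The 48 h libraries were the least alike of the series. Across all transcripts the correlation of replicates on the scaled log2 scale was 0.938 at 48 h, against 0.964 to 0.989 at the 5 other times. The median size of the difference between replicates over the 14283 transcripts tested was 0.44 on the log2 scale at 48 h, and 0.19 to 0.31 at the other times. Single libraries also differed in how many transcripts had a value above 0, from 14492 in 48 h replicate 2 to 16866 in 2 h replicate 1. With 48 h replicate 1 left out, 535 transcripts met the rule, 169 of the 198 among them. With 48 h replicate 2 left out, 336 met it, 130 of the 198 among them.

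Together the members held a small part of the measured RNA until 12 h and about 3 times as much at 48 h. They took 0.975% and 0.943% of all RPKM in the 0 h libraries, 0.966% and 1.01% at 2 h, 0.784% and 0.861% at 4 h, 0.713% and 0.741% at 6 h, 0.972% and 0.953% at 12 h, and 3.02% and 3.08% in the 48 h libraries. The lowest shares were those at 6 h, and both 48 h libraries lay far above the other 10. The median member stood at 7.53 and 5.37 RPKM in the 0 h libraries, 8.76 and 5.83 RPKM at 12 h, and 23.0 and 27.8 RPKM at 48 h. The median of all rows was lower in both libraries at 48 h (10.6 and 9.56 RPKM) than in the 0 h libraries (14.5 and 13.6 RPKM). In each of the 10 earlier libraries the median member lay below the median of all rows, and in both 48 h libraries above it.

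**Figure D1:**
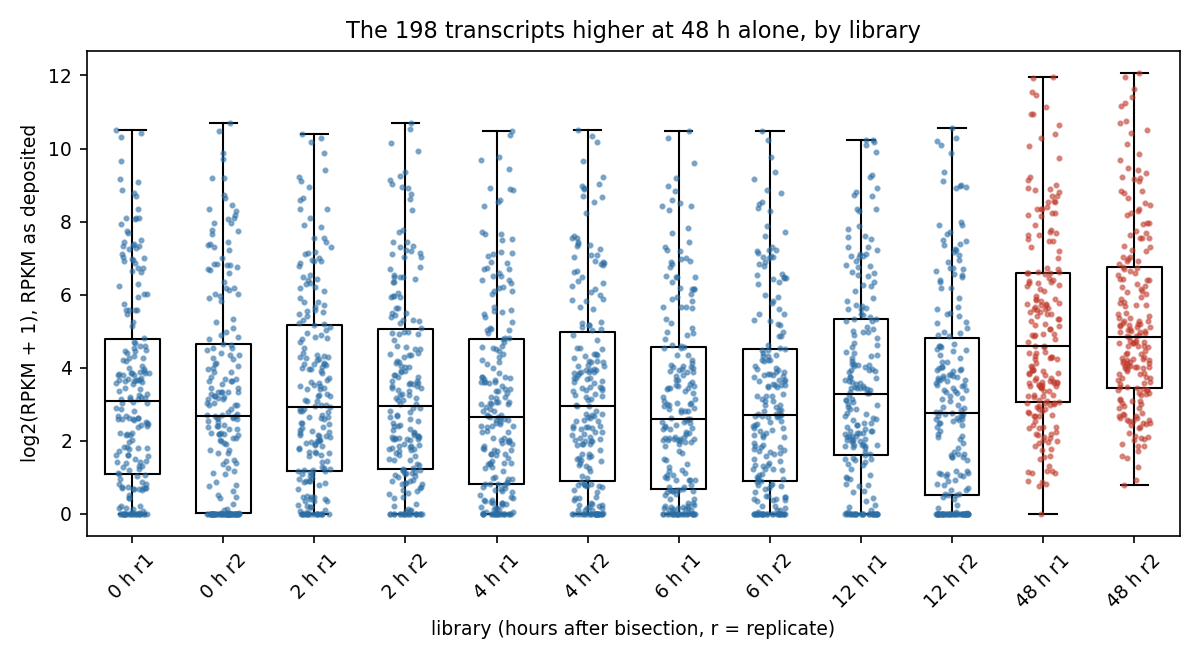
Level of each of the 198 members in each of the 12 libraries, as log2(RPKM + 1) of the deposited RPKM; points are transcripts, boxes show the quartiles and the median, and whiskers reach the lowest and highest value. The medians at 48 h are 23.0 and 27.8 RPKM, and the medians of the 10 earlier libraries lie between 5.04 and 8.76 RPKM.

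The gap had a median of 1.27 on the log2 scale and ran from 1.00 to 5.06. It was below 1.5 in most members, at least 1.5 in 61, at least 2 in 31 and at least 3 in 5. At 48 h the mean level was 1 to 10 RPKM in 50 members, 10 to 100 RPKM in 98, 100 to 1000 RPKM in 38 and above 1000 RPKM in 12. The 12 most abundant members made up 63.6% and 62.4% of the members' RPKM in the 48 h libraries. The median of the 48 h means was 25.3 RPKM, with a lowest value of 1.36 RPKM and a highest of 4122 RPKM.

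The strongest gap belonged to XM_002157845.2, a transcript that was weak and uneven until 12 h. It stood at 9.19 and 0.00776 RPKM at 0 h, 2.61 and 8.61 at 2 h, 1.64 and 0.342 at 4 h, 0.00364 and 0.0353 at 6 h, 18.8 and 21.0 at 12 h, and 475 and 925 RPKM at 48 h. Its gap of 5.06 was measured from 12 h, and both 48 h libraries lay far above every other library. XM_002159653.2 had the second-largest gap, 4.14. It stood at 82.6 and 3.24 RPKM at 48 h and was below 0.001 RPKM in all 10 earlier libraries, so the size of its rise differed widely between the 2 replicates. Leaving out 48 h replicate 1 gave a gap of 2.01, and leaving out replicate 2 gave 6.27. The 3 other gaps of at least 3 were those of XM_002165586.2, XM_002170204.1 and XM_002155085.2, named here because their number is small. In that order these 3 stood at 9.62, 3.81 and 10.9 RPKM in 12 h replicate 1, and each was below 0.001 RPKM in 12 h replicate 2. With single libraries left out, their gaps fell as low as 1.89, 2.19 and 1.42. XM_002165586.2 stood at 38.0 and 36.6 RPKM at 48 h, XM_002170204.1 at 10.4 and 40.1 RPKM, and XM_002155085.2 at 20.1 and 44.2 RPKM.

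The 12 members above 1000 RPKM had gaps between 1.00 and 2.40, with a median of 1.47, and 6 of them reached 1.5. XM_004210767.1 had the highest 48 h level of all members. It stood at 418 and 402 RPKM at 0 h, 593 and 564 at 2 h, 863 and 1168 at 4 h, 501 and 578 at 6 h, 1211 and 1091 at 12 h, and 3934 and 4310 RPKM at 48 h. Before 48 h its libraries at 4 h and 12 h were the highest and those at 0 h the lowest, and its gap over 12 h was 1.91. XM_002154861.2 stood at 1371 and 1662 RPKM at 0 h, 1164 and 1670 at 2 h, 1421 and 1292 at 4 h, 1422 and 1213 at 6 h, 1090 and 1259 at 12 h, and 4014 and 3992 RPKM at 48 h. Its earlier libraries lay between 1090 and 1670 RPKM, with deposited means that fell at each step, from 1517 RPKM at 0 h to 1175 RPKM at 12 h. On the scaled log2 scale these means lay between 10.0 and 10.2 without a steady fall, and its gap over 4 h was 1.67. XM_002155852.2 had the highest 48 h level among members whose highest earlier mean fell at 2 h. It stood at 270 and 292 RPKM at 0 h, 488 and 612 at 2 h, 343 and 368 at 4 h, 318 and 469 at 6 h, 450 and 482 at 12 h, and 2255 and 2714 RPKM at 48 h. Before 48 h its 0 h pair was the lowest and its 2 h pair the highest, and its gap of 2.40 was the widest among the 12 members above 1000 RPKM.

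A pair of members follows as those with the highest 48 h level among members whose highest earlier mean fell at 0 h or at 6 h. XM_002168474.2 stood at 159 and 157 RPKM at 0 h, 137 and 84.6 at 2 h, 72.0 and 81.5 at 4 h, 81.1 and 94.5 at 6 h, 80.6 and 105 at 12 h, and 378 and 556 RPKM at 48 h. It was lower at 4 to 12 h than at 0 h in every library, and then passed its 0 h level with a gap of 1.93. XM_004212256.1 stood at 129 and below 0.001 RPKM at 0 h, 36.7 and 40.6 at 2 h, 83.4 and 135 at 4 h, 174 and 118 at 6 h, 131 and 0 at 12 h, and 413 and 205 RPKM at 48 h. The near-zero values in the second replicates of 0 h and 12 h stand against more than 100 RPKM in their partners, and its gap over 6 h was 1.10.

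**Figure D2:**
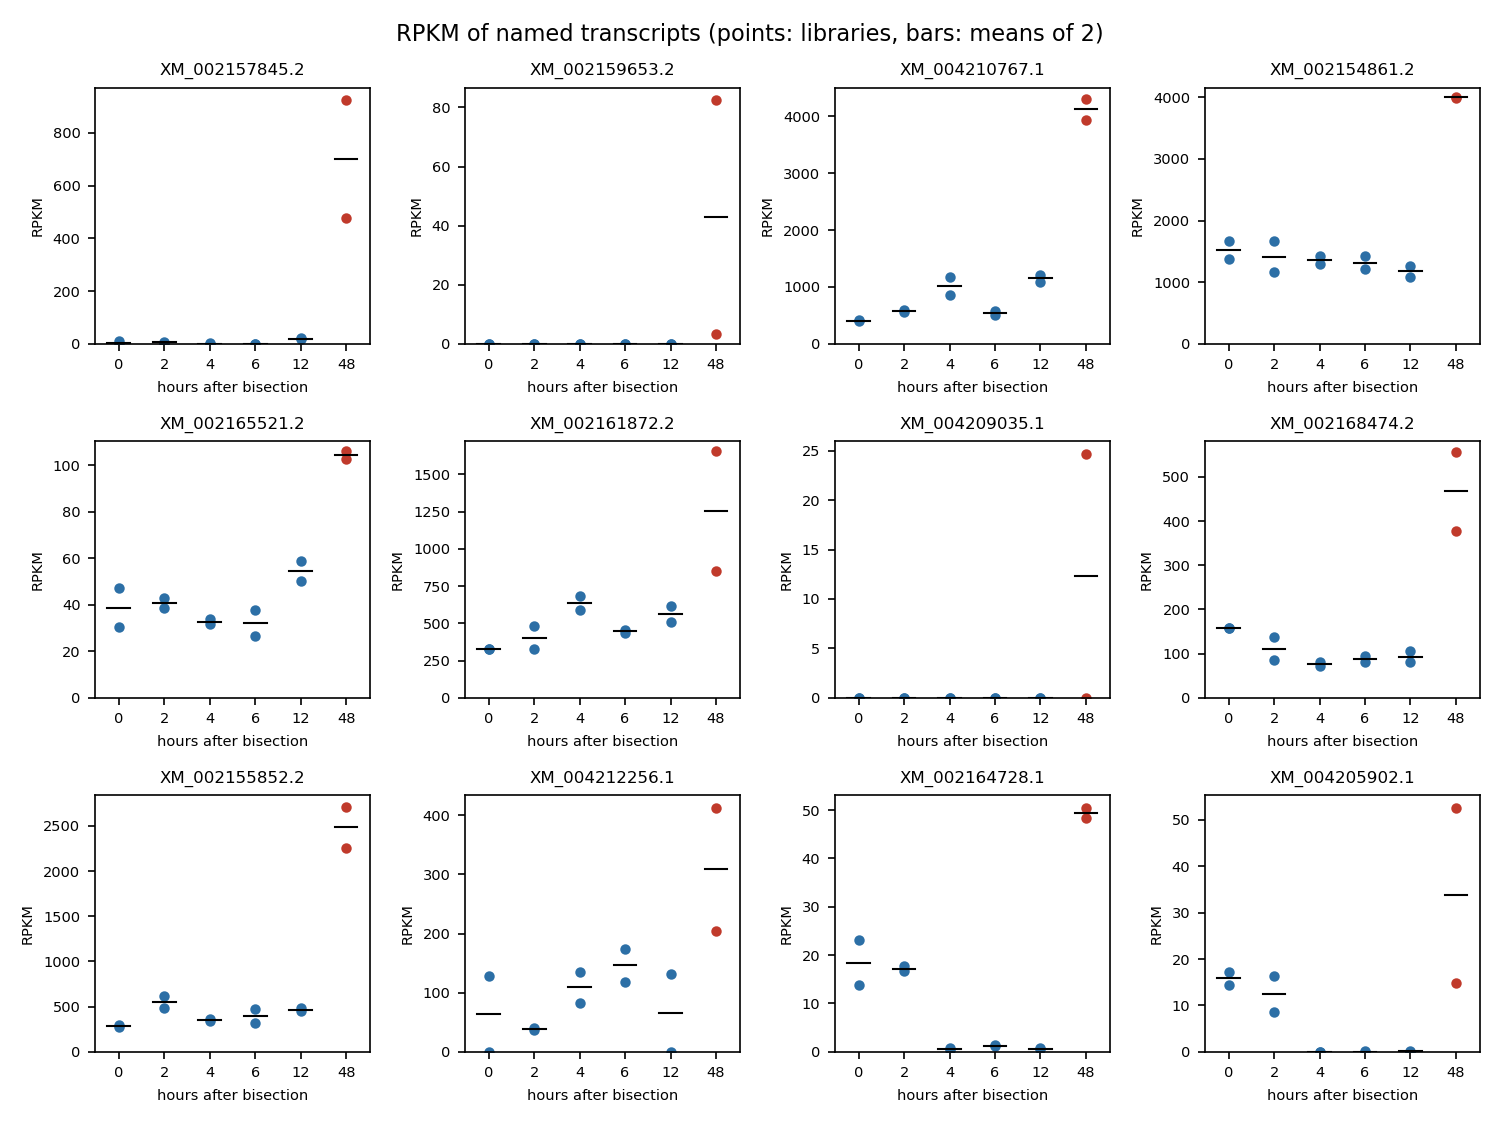
RPKM of 12 named members at the 6 times, with 1 panel per transcript; points are the 2 libraries of a time (red at 48 h, blue before), bars are their means, and every axis starts at 0. Both 48 h points lie above all earlier points in 11 of the 12 panels; in XM_004205902.1 the lower one, 14.8 RPKM, is below 17.2 RPKM at 0 h. In XM_002159653.2 and XM_004209035.1 one of the 2 points is close to 0 on the scale of the panel.

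At the limit of the rule, members and non-members were close. XM_002165521.2, with a gap of 1.00, stood at 103 and 106 RPKM at 48 h, against 59.0 and 50.1 RPKM at 12 h. XM_002161872.2, also with a gap of 1.00, stood at 850 and 1655 RPKM at 48 h, against 687 and 592 RPKM at 4 h. Just outside, XM_004208738.1 had a gap of 0.996, with 244 and 208 RPKM at 48 h, against 101 and 138 RPKM at 12 h. XM_002156942.2 had a gap of 0.994, with 237 and 249 RPKM at 48 h, against 125 and 134 RPKM at 6 h. The gap of XM_002161872.2 was 0.51 when 48 h replicate 2 was left out.

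Members fell into 3 classes by how they were expressed before 48 h. In 116 members every one of the 10 earlier libraries had at least 1 RPKM, in 24 every earlier library was below 1 RPKM, and 58 were mixed. Among all predicted mRNAs 11645 were at 1 RPKM or more throughout those 10 libraries and 2554 were below 1 RPKM throughout. The 116 members expressed throughout had a median 48 h level of 64.9 RPKM and a median gap of 1.18. The 24 members below 1 RPKM had a median 48 h level of 3.26 RPKM, a highest of 42.9 RPKM and a median gap of 1.56. The 58 mixed members had a median 48 h level of 11.3 RPKM and a median gap of 1.54. Members expressed throughout were 58.6% of the group, against 68.5% of the predicted mRNAs. Of the 24 members below 1 RPKM before, only XM_002159653.2 had a 48 h mean above that of the median member.

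**Figure D3:**
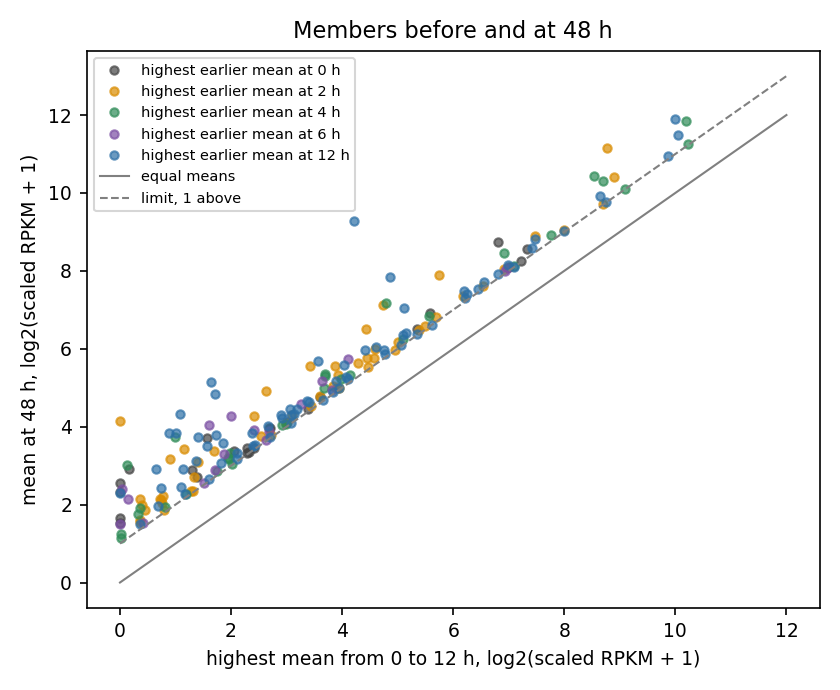
Mean at 48 h (vertical axis) against the highest of the 5 earlier means (horizontal axis) for the 198 members, both as log2(scaled RPKM + 1), coloured by the time of the highest earlier mean. The dashed line is the limit of the rule; the point farthest above it is the member with a gap of 5.06.

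Of the members, 6 were below 0.001 RPKM in all 10 earlier libraries, as were 1121 of the predicted mRNAs. Besides XM_002159653.2 these were XM_004209035.1, XM_004208858.1, XM_004212784.1, XM_004213207.1 and XM_002170083.2, of which the last 4 are named because the class is small. The 48 h libraries of some of these transcripts agreed poorly. At 48 h, XM_004209035.1 had 24.7 RPKM in replicate 2 but less than 0.001 RPKM in replicate 1, and its gap without replicate 2 was 0.0001, so that 1 library alone carried its rise. XM_004208858.1 stood at 14.0 and 0.894 RPKM, XM_004213207.1 at 0.832 and 4.87 RPKM, XM_004212784.1 at 3.55 and 7.47 RPKM, and XM_002170083.2 at 2.80 and 1.41 RPKM. A value above 0 but below 0.001 RPKM in at least 1 library was found in 16.2% of the members and in 20.7% of the predicted mRNAs. How reads shared by near-identical transcripts were assigned is not given in the sources, so the levels of such copies are uncertain.

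The 2 replicates at 48 h did not support all members to the same extent. In 101 members each 48 h library taken alone stood at least 1 above the highest earlier mean, and in 58 each stood at least 1 above every single earlier library. Replicate 1 alone reached the limit in 130 members and replicate 2 alone in 169. On the scaled log2 scale 131 members (66.2%) were higher in replicate 2, against 47.7% of the transcripts tested. The median size of the replicate difference at 48 h was 0.53 over the members and 0.44 over the transcripts tested. It was under 0.5 in 94 members and at least 2 in 7. Those 7 include the 3 transcripts XM_002159653.2, XM_004209035.1 and XM_004208858.1 described above. The other 4, named for this difference, were XM_002167728.2 at 104 and 576 RPKM, XM_004212174.1 at 79.3 and 17.4 RPKM (the second no higher than a 6 h library on the deposited scale), XM_002158995.2 at 1.93 and 24.4 RPKM, and XM_004211894.1 at 0.767 and 35.0 RPKM. Whether a difference between the pools or one between the libraries lies behind these values was not tested.

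**Figure D4:**
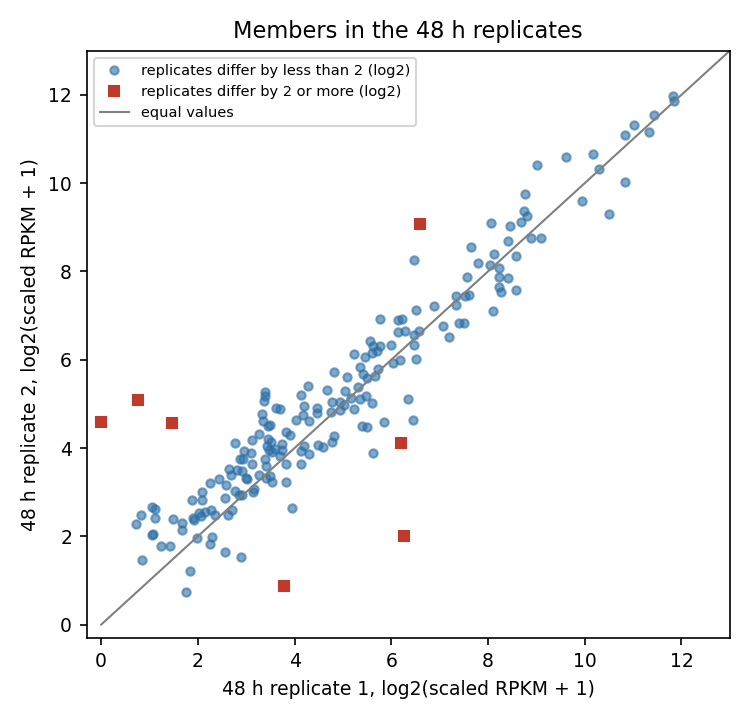
Level of the 198 members in 48 h replicate 1 (horizontal axis) and replicate 2 (vertical axis), as log2(scaled RPKM + 1), with a line of equal values. The 7 red squares are members whose replicates differ by 2 or more, and 131 of the 198 points lie above the line.

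From 0 to 12 h the members' means spanned about as much as those of the transcripts tested. The means of the 5 times from 0 to 12 h spanned less than 1 on the log2 scale in 62.6% of the members and in 62.9% of the transcripts tested, with median spans of 0.81 and 0.83. Change within 0 to 12 h was tested in limma, in one fit of all libraries and over the 14283 transcripts that reached 1 RPKM in 2 or more libraries. That filter kept 191 of the 198 members. The other 7 reached 1 RPKM in fewer than 2 libraries and were not tested, among them XM_004211894.1 with 0.767 and 35.0 RPKM at 48 h. The filter counts the 48 h libraries, and 22 of the 191 had 1 RPKM in fewer than 2 of the 10 earlier libraries, 17 of them in none. The rule uses the earlier means as a ceiling. Its further condition is one-sided: it leaves out a rise kept from 4 to 12 h, and not a fall. Beyond that the rule does not set the direction of change among the earlier means. By the moderated F-test over 2, 4, 6 and 12 h against 0 h, 28 of the 191 (14.7%) passed at a Benjamini-Hochberg adjusted p below 0.05, against 23.4% of all transcripts tested. With the filter applied to the 10 earlier libraries, a setting added once the data had been seen, 28 of 169 members (16.6%) passed, against 23.7%. Without 0 h replicate 2 the shares were 11.0% and 14.1%, without 6 h replicate 1 they were 12.0% and 15.5%, and without 6 h replicate 2 they were 11.5% and 14.6%. With weights per library the shares were 25.1% and 35.8%, and in a fit of the 0 to 12 h libraries alone 19.9% and 34.2%. The members' share lay below the background in each of the 24 alternatives. At each time from 0 to 12 h the members' replicates differed more than those of the transcripts tested. The median sizes were 0.33 against 0.26 on the log2 scale at 0 h, and 0.39 against 0.31 at 12 h. The part of this in the lower share was not tested. The ceiling and the further condition bear on these means, so the shares are a description.

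At 12 h, 23 of the 191 members stood higher than at 0 h and 5 lower, by limma's adjusted p below 0.05 and a log2 fold change of at least 1 in size. These are 12.0% and 2.62% of the members tested, and over all transcripts 8.42% were higher and 5.82% lower. The rule's further condition left out rises kept from 4 to 12 h, and not falls, so these shares are a description. With the filter on the earlier libraries 23 members were called higher and 5 lower, 13.6% and 2.96% of 169, against 8.52% and 5.91%. Leaving out 0 h replicate 2 gave 12 higher calls (6.28%, background 5.33%), and leaving out 12 h replicate 1 also gave 12 (6.28%, background 6.60%). The median log2 fold change of 12 h against 0 h was 0.27 over the members tested and −0.03 over all transcripts tested. The highest earlier mean fell at 12 h in 72 members (36.4%, against 22.7% of the transcripts tested), at 2 h in 53 (26.8%, against 23.3%), at 4 h in 31 (15.7%, against 11.5%), at 0 h in 24 (12.1%, against 26.3%) and at 6 h in 18 (9.09%, against 16.2%). The median gap was similar in these 5 classes, between 1.25 and 1.36.

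Some members stood above their 0 h level at 12 h. XM_004210767.1, the most abundant member, was higher at 12 h than at 0 h by 1.81 on the log2 scale (SE 0.17, limma adjusted p = 3e-04), and this call held in all 24 alternatives (adjusted p up to 0.0142). XM_004209179.1, chosen after its values were seen, stood at 1.66 and 0.201 RPKM at 0 h, 3.47 and 3.20 at 2 h, 3.06 and 4.02 at 4 h, 2.79 and 3.26 at 6 h, 12.2 and 12.2 at 12 h, and 39.7 and 73.6 RPKM at 48 h. It was low and level from 2 to 6 h, higher in both 12 h libraries and higher again at 48 h. Its log2 fold change at 12 h against 0 h was 2.91 (SE 0.37, limma adjusted p = 0.00108), with adjusted p up to 0.0294 over 24 alternatives. The step from 6 to 12 h was called higher in 4 members (2.09%, against 1.05% of all transcripts) and lower in none, against 1.37% of all transcripts. The 4 were XM_002157845.2, XM_004209179.1, XM_004210767.1 and XM_002165336.2, and each call was lost in at least 2 of 23 alternatives.

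A pair of other members stood above their 0 h level from 2 h on. XM_002168509.2 stood at 0.0111 and 0.00519 RPKM at 0 h, 14.8 and 44.2 at 2 h, 12.4 and 19.6 at 4 h, 19.4 and 21.4 at 6 h, 30.3 and 10.3 at 12 h, and 75.2 and 126 RPKM at 48 h. XM_002156568.2 stood at 13.6 and 6.32 RPKM at 0 h, 72.0 and 61.0 at 2 h, 49.2 and 74.6 at 4 h, 30.4 and 21.4 at 6 h, 43.4 and 48.0 at 12 h, and 335 and 196 RPKM at 48 h. XM_002156568.2 was lower at 6 h than at 2 and 4 h. In both transcripts the 0 h libraries lay below every later library, and the 48 h libraries lay above all others. They were the 2 members called higher at 2 h than at 0 h (1.05%, against 0.133% of all transcripts), and no member was called lower, against 0.035% of all transcripts. The log2 fold changes at 2 h were 4.42 (SE 0.58, limma adjusted p = 0.0252) and 2.83 (SE 0.36, adjusted p = 0.0220), and the calls were lost in 9 and 7 of 23 alternatives, among them leaving out 0 h replicate 2 (0.243 and 0.184). At 12 h against 0 h the log2 fold changes were 4.06 (SE 0.58, adjusted p = 0.00170) and 2.44 (SE 0.36, adjusted p = 0.00189), and both calls held in all 24 alternatives.

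A small group dropped before it rose. From 2 to 4 h, 8 members were called lower (4.19%, against 1.63% of all transcripts) and 1 higher (0.524%, against 4.01%). The rule's further condition had removed 10 transcripts that rose by 1 or more and stayed up from 4 to 12 h. It does not remove falls, so these shares are in part set by the choice. Among the 8, XM_004205902.1 and XM_002164728.1 fell the most. XM_002164728.1 stood at 23.2 and 13.7 RPKM at 0 h, 17.7 and 16.8 at 2 h, 0.416 and 0.753 at 4 h, 1.23 and 1.35 at 6 h, 0.697 and 0.578 at 12 h, and 48.3 and 50.5 RPKM at 48 h. Its libraries form 3 separate levels, and it fell by 3.30 on the log2 scale from 2 to 4 h (SE 0.26, limma adjusted p = 4.05e-04). XM_004205902.1 stood at 17.2 and 14.5 RPKM at 0 h and 16.3 and 8.48 at 2 h, was at or below 0.176 RPKM in all 6 libraries from 4 to 12 h, and stood at 52.6 and 14.8 RPKM at 48 h. Its lower 48 h library lay between its 0 h libraries on the deposited scale and above them on the scaled one. It fell by 3.38 from 2 to 4 h (SE 0.51, limma adjusted p = 0.00498). Both calls held in all 23 alternatives, while those of the other 6 members called lower at this step were lost in at least 2.

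The rule allowed a dip kept from 4 to 12 h but left out the mirror rise, so the share of dips is a description. In 5 members the 4, 6 and 12 h means all lay at least 1 below both the 0 h and the 2 h mean (2.53%, against 1.00% of the transcripts tested). Besides the pair above these were XM_004207869.1, also among the 8, and XM_004207571.1 and XM_004212737.1, whose log2 changes from 2 to 4 h of −2.29 and −3.34 did not pass the test (limma adjusted p = 0.0515 and 0.0532). These 3 are named because the group is small. In that order their 48 h libraries stood at 8.42 and 12.3 RPKM, 28.7 and 33.8 RPKM, and 84.2 and 106 RPKM. The member called higher from 2 to 4 h was XM_002156388.2. It stood at 273 and 218 RPKM at 0 h, 54.4 and 48.6 at 2 h, 387 and 478 at 4 h, 343 and 312 at 6 h, 595 and 238 at 12 h, and 1981 and 1111 RPKM at 48 h. It was lowest at 2 h in both libraries, and its log2 fold change from 2 to 4 h was 3.14 (SE 0.40, limma adjusted p = 0.00228), a call that held in all 23 alternatives. From 4 to 6 h no member was called in either direction, against 0.133% of all transcripts higher and 0.056% lower.

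For the contrasts that the rule itself used, the calls only restate the choice. Of the 191 members, 166 (86.9%) were called higher at 48 h than at 0 h by limma, with 9.22% over all transcripts, and 0 lower, with 8.25%. Against 12 h, 130 (68.1%) were called higher, with 2.92% over all transcripts, and 0 lower, with 4.12%. The count of 130 became 59 without 12 h replicate 2 and 22 when libraries were weighted. A fit of the 4 libraries of 12 h and 48 h alone gave 0, where 148 members had an unadjusted p below 0.05.

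With all 12 libraries, a rise at a single time was more frequent at 48 h than at the other times, and so was a fall. The number of predicted mRNAs with a mean at least 1 above every other time and both libraries above all others was 58 for 0 h, 43 for 2 h, 8 for 4 h, 64 for 6 h, 48 for 12 h and 208 for 48 h. The number that stood lower in the same way was 113 for 0 h, 20 for 2 h, 0 for 4 h, 25 for 6 h, 38 for 12 h and 250 for 48 h. The 48 h samples were taken after the longest interval, and their replicates differed most. The part of either in these counts was not tested. When a library is left out, only the 1 library that remains of its time has to lie beyond all others. This loosens the rule for that time alone, so its numbers are not on a par with those of the other times. The order did not hold without 0 h replicate 1, when 205 were higher and 242 lower for 48 h, against 261 and 392 for 0 h. Without 48 h replicate 1 the numbers for 48 h were 545 and 947, and without 48 h replicate 2 they were 354 and 257. Among the 364 predicted non-coding transcripts of the table, 10 (2.75%) met the same rule as the members.

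**Figure D5:**
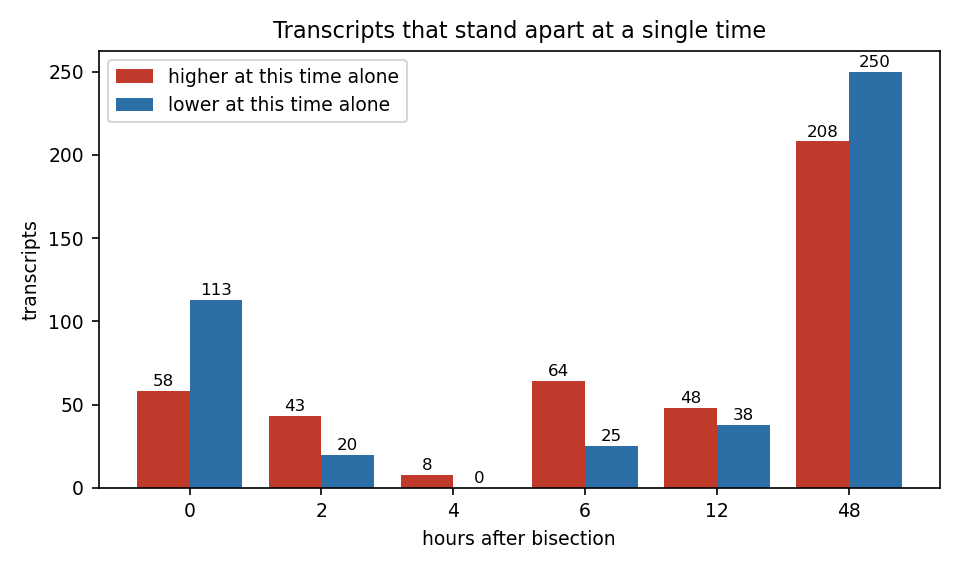
Number of predicted mRNAs that stood apart at a single time, by hours after bisection; red bars count transcripts higher than at every other time and blue bars transcripts lower, with both libraries beyond all others and a gap of at least 1. The bars at 48 h, 208 and 250, are the tallest, and the 208 include the 198 members.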

How the data were processed

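Strand-specific poly(A) libraries were read as 50-base single ends, per the labels' protocols. The deposited values are RPKM of 17353 transcripts per library, computed by the authors. The submitters' processing notes name Bowtie 0.12.8. For the genome build, read assignment and filtering, nothing is given in the sources used here. Each library holds values above 0 and below 0.001 RPKM that are not multiples of whole reads, so depth is unknown and no counting interval is given. RPKM totals ran from 1330540 to 1535760, and the scaling factors of the rule from 0.701 to 0.937.

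The members, lists and tests were chosen with earlier results of these data known. Values were handled in Python 3.11.15 and fitted in limma 3.58.1 under R 4.3.3, as log2(scaled RPKM + 1) with 1 mean per time, a variance trend and 6 residual degrees of freedom. Transcripts reaching 1 RPKM in 2 or more libraries were tested. Tests were two-sided and adjusted by the Benjamini-Hochberg method over all 14283. The procedure was run on simulated data in which each transcript had the same spread at all times. The 48 h replicates here differed most, so that run does not cover this feature of the data. The 2 samples of a time are separate pools of animals, and p-values measure the spread between them.

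Transcripts without a name were given by fixed criteria: the 2 largest gaps, the 2 highest 48 h levels, 2 on each side of the limit, the 2 highest 48 h levels among those below 0.001 RPKM before, and the highest 48 h level for each time of the highest earlier mean. Others are said to be chosen after their values were seen, by a property or count stated beside them. Alternatives were other scalings, pseudocounts, filters and variance settings, a replicate block, fits of only the libraries compared and leaving out each library. Weights per library, a filter on the 10 earlier libraries, scaling over all rows and a minimum of 10 RPKM at 48 h were added after seeing the data.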

Additional observations from a re-analysis of the deposited data

How the results depend on the processing

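The number of transcripts meeting the rule was 198 and ranged from 174 to 535 when single libraries were left out. It was 131 with RPKM as deposited and 107 with a pseudocount of 5, of which 129 and 103 were members. The total called at 48 h against 12 h was 1005, 174 with weights per library, 0 with only the libraries compared (1947 at an unadjusted p below 0.05) and 677 to 2370 without single libraries. The total at 12 h against 0 h was 2034, 1298 with only the libraries compared and 1188 to 2392 without single libraries. The F-test total was 3345, 5109 with weights per library and 2011 to 4896 without single libraries. Members called higher at 48 h against 12 h numbered 130, 22 with weights, 0 with only the libraries compared and 59 to 135 without single libraries. Members called higher at 12 h against 0 h numbered 23, 15 with RPKM as deposited, 13 with only the libraries compared and 12 to 31 without single libraries. Those called lower numbered 5, 8 with RPKM as deposited, 2 with a pseudocount of 5, 3 without the filter, 3 with weights and 3 to 5 without single libraries. Members passing the F-test numbered 28, 48 with weights and 20 to 40 without single libraries. The cause of these shifts was not tested.

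Under the alternatives, 161 of 188 such counts differed by less than 1.5 times from those reported. No gap or fold change of a named transcript changed sign, but these transcripts had been picked by those values. With both 48 h libraries above all others, leaving out a library could not reverse a gap. Of 828 values of these gaps under the alternatives, 69 moved by more than the standard deviation of the 48 h pair. Leaving out a 48 h library always shifts a gap by less than that, so such values could not be among the 69. The gap of XM_004209035.1 fell from 2.30 to 0.0001 without 48 h replicate 2 and was not counted. The 69 are therefore no measure of how the gaps depend on the 48 h libraries. The replicate numbers did not pair the samples: the replicate differences of 2 times correlated between −0.10 and 0.24 over 15 pairs of times, above 0.1 in 1 pair. With the replicate block, 114 members were called at 48 h against 12 h, 18 higher and 5 lower at 12 h against 0 h, and 26 by the F-test. Depth cannot be read from the deposited RPKM, which limits what can be said of transcripts near 0.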
